A study of Mus musculus with 9 samples.

Results

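The beta-2 integrins are leukocyte adhesion receptors built from 1 of 4 alpha chains and a common beta chain, and the genes of all 5 subunits were examined here in mouse alveolar macrophages with and without Vhl. The members were Itgax (CD11c), Itgam (CD11b), Itgad (CD11d), Itgal (CD11a) and Itgb2 (CD18), chosen by gene family and found by matching the Ensembl identifiers of the deposited expression table to gene symbols. All 5 of 5 listed genes were present among the 12003 genes of that table.

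Alveolar macrophages are the resident phagocytes of the airspace and take up surfactant and inhaled particles. Vhl encodes the part of a ubiquitin ligase that marks the hypoxia-inducible factors for degradation, so cells without it keep these transcription factors when oxygen is present. The libraries came from bronchoalveolar lavage of untreated, sex-matched C57BL/6 mice aged 8 to 12 weeks, and each of the 9 libraries was made from a pool of 5 to 7 mice. There were 3 genotypes with 3 pools each: floxed controls, Vhl(flox/flox) with CD11c(+/+), which lack Cre; Cre controls, Vhl(+/+) with CD11c(cre/+), which carry Cre and unfloxed Vhl; and knockouts, Vhl(flox/flox) with CD11c(cre/+). The knockouts thus differ from the floxed controls by Cre as well as by loss of Vhl, and from the Cre controls by the floxed allele as well.

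The experiment touches Itgax in more ways than as a readout. CD11c, its protein, was the surface marker on which the lavage cells were positively selected with magnetic beads, so every library was enriched for CD11c-positive cells. Markers of other cells were measured too, as given below. The Cre allele is named for CD11c too, and the Itgax promoter used for such alleles is known to be active in dendritic cells as well as in alveolar macrophages. The labels do not say how the allele was built. Since the libraries are pools of whole cells, fewer cells of a type and less RNA per cell cannot be told apart in any value below, and p-values measure only the spread between the pools.

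As background, CD18 pairs with each alpha chain before the pair reaches the surface, and the alpha chain sets the ligand. CD11a/CD18 (LFA-1) binds ICAMs and serves leukocyte adhesion and contact with other cells. CD11b/CD18 (Mac-1, complement receptor 3) and CD11c/CD18 (complement receptor 4) bind the complement fragment iC3b, fibrinogen and other ligands, and CD11d/CD18 binds VCAM-1 and matrix proteins. The receptors are switched on from inside the cell by talin and kindlin (inside-out activation) and signal back through Src family and Syk kinases once ligand is bound (outside-in signalling).

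The 3 genes named CD11b, CD11c and CD11d lie side by side on chromosome 7, all on the plus strand. In the GRCm38 build with the GENCODE M21 annotation, Itgam (ENSMUSG00000030786) spans chr7:128062640-128118491, Itgax (ENSMUSG00000030789) chr7:128129547-128150657 and Itgad (ENSMUSG00000070369) chr7:128154376-128223816. The gap from the end of Itgam to the start of Itgax is 11.1 kb, and that from the end of Itgax to the start of Itgad is 3.7 kb. Itgal (ENSMUSG00000030830) spans chr7:127296260-127335138 and ends 727.5 kb before the start of Itgam. The beta chain gene Itgb2 (ENSMUSG00000000290) is on another chromosome, at chr10:77530252-77565708, on its plus strand.

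Promoter sequence from RefSeq (GRCm38.p6) was matched for 2 of the 5 members, Itgax and Itgam, and the 250 bases before each RefSeq start are shown because these neighbouring genes gave different readouts in the knockouts. Capitals mark matches, on either strand, to any of 5 short motifs: the PU.1 core GAGGAA, the HIF cores ACGTG and GCGTG, the RUNX core TGTGGT and the GC box GGGCGG. The first lies at chr7:128129300-128129549 and the next at chr7:128062390-128062639, both read on the plus strand, 5′ to 3′. The RefSeq start is base 128129550 for Itgax, inside the GENCODE gene by 3 bases, and base 128062640 for Itgam, where the GENCODE gene starts too.
Itgax: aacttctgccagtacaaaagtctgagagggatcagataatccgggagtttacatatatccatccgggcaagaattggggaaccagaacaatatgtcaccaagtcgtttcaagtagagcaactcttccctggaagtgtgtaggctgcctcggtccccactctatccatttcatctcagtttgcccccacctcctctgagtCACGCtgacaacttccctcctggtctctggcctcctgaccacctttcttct
Itgam: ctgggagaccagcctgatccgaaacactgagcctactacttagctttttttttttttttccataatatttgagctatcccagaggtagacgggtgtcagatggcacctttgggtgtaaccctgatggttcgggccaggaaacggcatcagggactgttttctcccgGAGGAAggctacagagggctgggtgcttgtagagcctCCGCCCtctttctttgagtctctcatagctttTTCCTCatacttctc

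The Itgax window held 1 GCGTG match, on the reverse strand and so printed as CACGC, at bases -51 to -47 from the start, and no match to the other 4 motifs. The Itgam window held 2 GAGGAA matches, at -84 to -79 on the forward strand and at -15 to -10 on the reverse strand, and 1 GC box on the reverse strand at -47 to -42. Such short motifs are common: of 32851 promoter windows of this length, 23.3% held GAGGAA, 28.2% GCGTG, 16.6% ACGTG, 14.0% TGTGGT and 32.7% GGGCGG on either strand. A match describes the letters only.

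Values are normalized reads, the deposited unit, which equal whole reads multiplied by 1 factor per library. Recovered reads per library ran from 18201116 to 25861174, so 1 read was worth 0.0400 to 0.0565 normalized reads and the fewest reads behind a member value were 333 (Itgad in floxed control 1). The values are not corrected for gene length, so levels of different genes are compared below only per kb of exon. Vhl, the targeted gene, matched the labels: it stood at 18.1 ± 3.05 (SD, n = 3) normalized reads in the floxed controls, 23.7 ± 1.69 in the Cre controls and 2.23 ± 0.261 in the knockouts. Differences were tested with limma on log2(value + 1) with Benjamini-Hochberg adjustment over all 12003 genes, and a gene is called where the adjusted p is under 0.05. The log2 fold changes are on that log2(value + 1) scale. The contrasts share libraries, so their results are not independent of each other.

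Against the 6 control libraries together, Itgad and Itgam were higher in the knockouts, Itgal was lower, and Itgax and Itgb2 were not called. That is 3 of 5 members called, where 39.8% of all genes tested were called in this contrast, 19.7% as higher and 20.2% as lower in the knockouts. Without the scaling factor that split went from 2361 higher and 2420 lower genes to 1925 and 2838. The same 3 members were those whose knockout and control libraries did not overlap, as was true of 37.7% of all genes. By size of change, Itgad ranked 76th, Itgam 415th and Itgal 2015th of the 12003 genes.

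**Figure D1:**
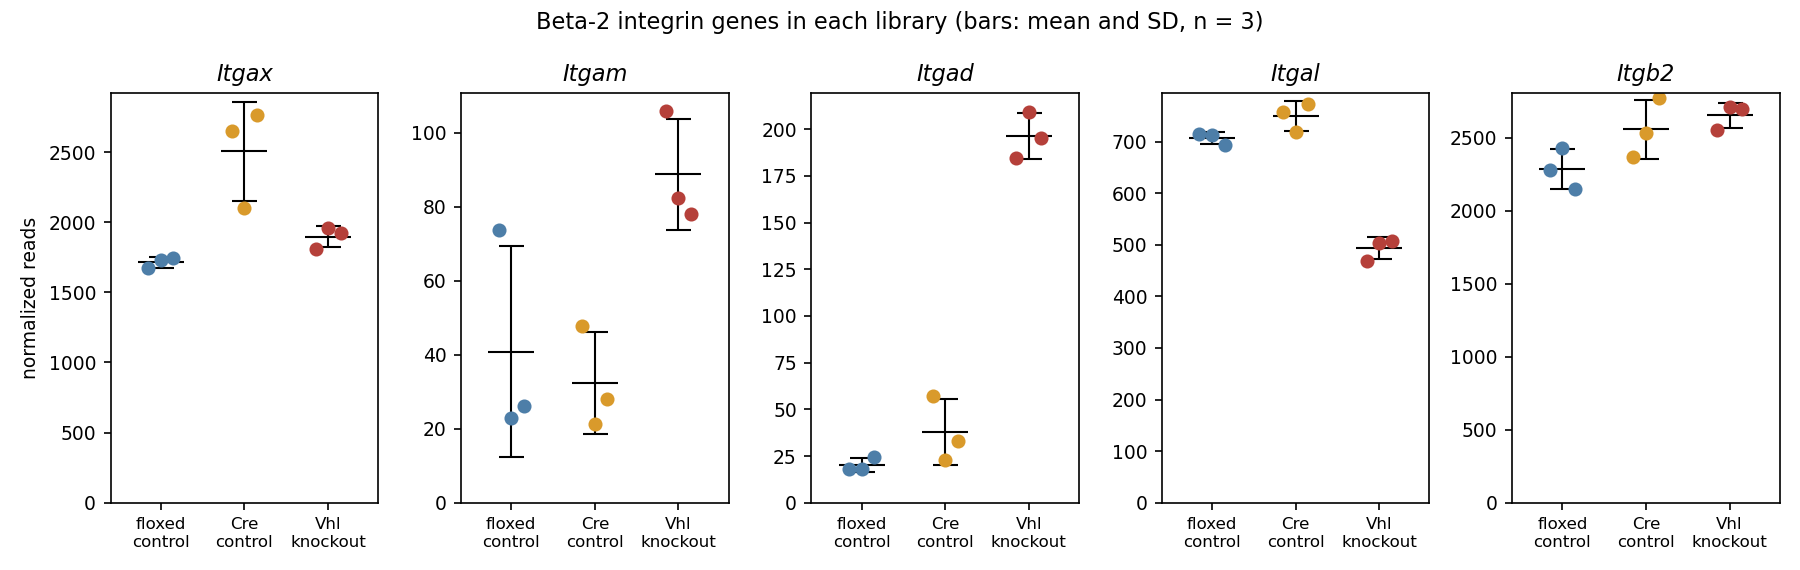
Normalized reads (vertical axis, from 0, one scale per gene) of the 5 beta-2 integrin genes in each of the 9 libraries; points are libraries and bars give the mean and SD of 3 pools. Itgad stands at 185 to 209 in the knockouts against 18.1 to 57.3 in the controls, Itgal at 469 to 508 against 693 to 773, and Itgax is highest in the Cre controls.

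Itgax, the gene whose name the Cre allele carries, was highest in the Cre controls. It measured 1672, 1727 and 1747 normalized reads in floxed controls 1, 2 and 3. In the Cre controls it measured 2652, 2103 and 2760.5. The knockouts, which carry Cre as well, had 1812, 1956 and 1924. All 3 Cre controls thus lay above every knockout, as one group did above the other for 51.2% of all genes in that contrast, and all 3 knockouts lay above every floxed control. The means were 1715 ± 38.9 in the floxed controls, 2505 ± 353 in the Cre controls and 1897 ± 75.7 in the knockouts (SD, n = 3 each), and the spread among the Cre controls was the widest of the 3 genotypes.

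The Cre controls exceeded the floxed controls 1.46-fold in mean Itgax, a log2 difference of 0.54 (SE 0.11; 95% interval 0.30 to 0.77). By limma the unadjusted p was 0.00051, rank 39 of the 12003 genes, but the adjusted p was 0.157, so Itgax was not called. The call depended on the tool and on 1 library: DESeq2 gave an adjusted p of 1.09e-05, edgeR's quasi-likelihood test 0.131, and limma without Cre control 2, the lowest of its group, 0.0239. In this contrast 0.167% of all genes were called (20 genes), and 0 of 5 members; 2 members had an unadjusted limma p under 0.05, edgeR called 0 members and DESeq2 called 1, Itgax.

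Between knockouts and Cre controls, which both carry the Cre allele, Itgax was lower in the knockouts. The log2 difference was -0.39 (SE 0.11; limma adjusted p = 0.0173), a mean 1.32-fold higher in the Cre controls, in a contrast that called 34.0% of all genes. The call was lost without Cre control 1 (adjusted p = 0.0539), Cre control 3 (0.0725) or knockout 1 (0.0630), and also when all libraries numbered 1 were left out (0.133). Against the floxed controls the knockouts were 0.14 higher on the log2 scale (95% interval -0.09 to 0.38; limma adjusted p = 0.324), and against both controls together 0.12 lower (-0.33 to 0.08; adjusted p = 0.318). In the first of these the 3 libraries of each group did not overlap, as was true of 47.3% of all genes.

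Itgad, the CD11d chain and the immediate downstream neighbour of Itgax, rose most among the members. It measured 18.1, 18.1 and 24.7 normalized reads in the floxed controls and 57.3, 22.7 and 33.2 in the Cre controls. The knockouts had 185, 209 and 195. Every knockout lay above every control with a wide gap, and Cre control 1 was the highest control. The knockout mean of 196 ± 12.5 (SD, n = 3) was 6.77 times the control mean of 29.0 ± 14.9 (SD, n = 6), a log2 fold change of 2.84 (SE 0.23; 95% interval 2.33 to 3.35; limma adjusted p = 8.32e-06).

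Taken by control, the Itgad mean in the knockouts was 9.67 times that of the floxed controls (log2 change 3.22, adjusted p = 1.31e-05 by limma) and 5.203 times that of the Cre controls (2.45; 8.47e-05). Itgad was called in all 3 knockout contrasts under every alternative setting, with log2 fold changes against both controls from 2.66 to 3.02. The Cre controls had a higher Itgad mean than the floxed controls, 37.7 against 20.3, and the log2 difference was 0.78 (95% interval 0.19 to 1.37; limma unadjusted p = 0.0148, adjusted p = 0.572). Those 2 groups overlapped, and the adjusted p did not pass.

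Itgax and Itgad resemble each other in sequence, which matters for how reads were assigned. Of the 61-base windows (the read length) of the longest coding Itgax transcript, 318 of 3986, or 7.98%, occur in Itgad too, in 6 runs of which the longest covers 188 bases. Spread evenly, the Itgax level in windows of that kind would be 133.4 to 139.4 normalized reads in the floxed controls, 167.8 to 220.2 in the Cre controls and 144.5 to 156.0 in the knockouts. These levels exceed the Itgad values of all 6 controls. How the authors' counting placed shared reads was not tested. Counting every other gene, 740 of 4045 windows of the longest coding Itgad transcript, 18.3%, are not unique to it. In exons Itgad overlaps 4931431B13Rik by 388 bases, Gm39091 by 102 and Cox6a2 by 70, all on the minus strand, and the pseudogene Gm17831 by 330 on its own strand. Of these only Cox6a2 is in the table, at 0.339 to 1.799 normalized reads over the 9 libraries. The part of these overlaps in the Itgad value was not tested.

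Itgam, the CD11b chain that lies just upstream of Itgax, rose in the knockouts from a low level. CD11b marks monocytes, neutrophils and interstitial macrophages and is low on resident alveolar macrophages. Itgam measured 73.7, 22.8 and 26.02 normalized reads in the floxed controls and 47.8, 21.2 and 28.2 in the Cre controls. The knockouts had 106, 82.2 and 78.1, so all 3 lay above all 6 controls, though knockout 3 and floxed control 1 were close. The mean was 88.7 ± 14.98 (SD, n = 3) in the knockouts and 36.6 ± 20.5 (SD, n = 6) in the controls, 2.42-fold higher, with a log2 fold change of 1.39 (SE 0.35; 95% interval 0.60 to 2.18; limma adjusted p = 0.0106).

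The increase over both controls kept its call under every alternative setting, at log2 fold changes from 1.24 to 1.68. Against the floxed controls alone the log2 fold change was 1.29 (limma adjusted p = 0.0336). That call was lost with edgeR (adjusted p = 0.0700), with DESeq2 (0.0846) and without floxed control 2 (0.116), among others. Against the Cre controls alone it was 1.49 (limma adjusted p = 0.0180), and this call was lost without Cre control 2 (0.0720), Cre control 3 (0.0581) or knockout 1 (0.0585). Between Cre and floxed controls Itgam was not called (log2 difference -0.20; 95% interval -1.11 to 0.71; limma adjusted p = 0.898), and its sign turned, to 0.32, without floxed control 1.

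In each genotype the library numbered 1 had the highest Itgam. The same libraries had the highest summed neutrophil markers, a list of 10 genes of which 5 were measured: 579.9 normalized reads in floxed control 1, 262.6 in Cre control 1 and 292.7 in knockout 1, against 49.34 to 147.4 in the other 6. Of these 5 markers, 0 were called between knockouts and both controls by limma, edgeR or DESeq2, and 0 had an unadjusted limma p under 0.05; limma without the libraries numbered 1 called 1 higher and 2 lower. With all libraries, limma called 39.8% of all genes in that contrast. Summed monocyte markers (12 of 12 measured) ran from 295.3 to 520.6 in the controls and 402.1 to 446.4 in the knockouts. Of these 12, 4 rose and 2 fell. Ace rose from 68.7 ± 4.475 (SD, n = 6) to 168.6 ± 10.7 (SD, n = 3), and F13a1 from 0.597 ± 0.303 to 53.2 ± 10.02. Treml4 fell from 73.4 ± 20.8 to 17.97 ± 2.09. Summed interstitial macrophage markers (8 of 11) ran from 122.7 to 309.9 in the controls and 228.8 to 326.2 in the knockouts. That sum leans on 1 gene, the protease Mmp12, which rose from 34.5 ± 34.8 (SD, n = 6) to 161 ± 37.9 (SD, n = 3). Leaving Mmp12 out was a choice made after the values were seen. The sum was then 98.31 to 204.8 in the controls and 94.97 to 121.9 in the knockouts. Leaving out the 3 libraries numbered 1 was also chosen after the values were seen. The Itgam log2 fold change against both controls was then 1.68 (limma adjusted p = 6.43e-06). The part of these other cells in the Itgam value was not tested.

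A further limit concerns the Itgam annotation. The protein-coding gene model Gm49368 overlaps Itgam on the same strand over 3450 bases of exon, and 3331 of 4622 61-base windows of the longest coding Itgam transcript, 72.1%, occur in it. Gm49368 is not in the table, and whether reads were split between the models was not tested.

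Itgal, the CD11a chain of LFA-1, fell in the knockouts. It measured 716, 713 and 693 normalized reads in the floxed controls and 757, 718 and 773 in the Cre controls. The knockouts had 469, 504 and 508. All 3 knockouts lay well below all 6 controls, and the spread within each genotype was small. The mean was 494 ± 21.5 (SD, n = 3) in the knockouts and 728 ± 30.4 (SD, n = 6) in the controls, a ratio of 0.678 and a log2 fold change of -0.56 (SE 0.05; 95% interval -0.68 to -0.44; limma adjusted p = 2.32e-05).

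The ratio was 0.698 against the floxed controls (limma adjusted p = 1.38e-04) and 0.659 against the Cre controls (5.17e-05). The Itgal call held in all 3 knockout contrasts under every alternative setting, and 0 of its 5162 windows of 61 bases occur in another gene. The Cre controls lay above the floxed controls without overlap, 749 ± 28.5 against 707 ± 12.6 (SD, n = 3 each), but the log2 difference of 0.08 was not called (limma adjusted p = 0.694), and 11.9% of all genes showed such a separation. CD11a is carried by many leukocytes, dendritic cells and lymphocytes among them. Of 15 dendritic cell markers, 14 fell in the knockouts against both controls and 1 was not called, where 20.2% of all genes were called lower. With the filter on a mean of at least 5 normalized reads, 5 were called lower, and the other markers lay below that mean. The summed level of the 15 markers was 84.77 to 227.1 normalized reads in the controls and 26.25 to 27.77 in the knockouts. Ccr7, a chemokine receptor of migrating dendritic cells, fell from 40.7 ± 20.98 (SD, n = 6) to 4.31 ± 0.875 (SD, n = 3), and Fscn1, an actin-bundling protein of mature dendritic cells, from 43.6 ± 21.3 to 4.43 ± 1.04. The part of dendritic cells in the fall of Itgal, or in the level of Itgax, which they also carry, was not tested.

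Itgb2, the CD18 chain required by all 4 alpha chains, had the highest level per kb of the 5 genes and was called in no contrast. It measured 2275, 2426 and 2149 normalized reads in the floxed controls. The Cre controls had 2364, 2532 and 2770.1, and the knockouts 2553, 2710.4 and 2693. The knockouts lay above every floxed control but within the range of the Cre controls. Knockouts and floxed controls did not overlap for 47.3% of all genes. The means were 2283 ± 139, 2555 ± 204 and 2652 ± 86.5 (SD, n = 3 each). The log2 fold change was 0.14 against both controls (95% interval -0.04 to 0.31; limma adjusted p = 0.198), 0.22 against the floxed controls (0.01 to 0.42; 0.0924) and 0.06 against the Cre controls (-0.15 to 0.26; 0.676). DESeq2 alone called the difference from the floxed controls (adjusted p = 0.0121).

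**Figure D2:**
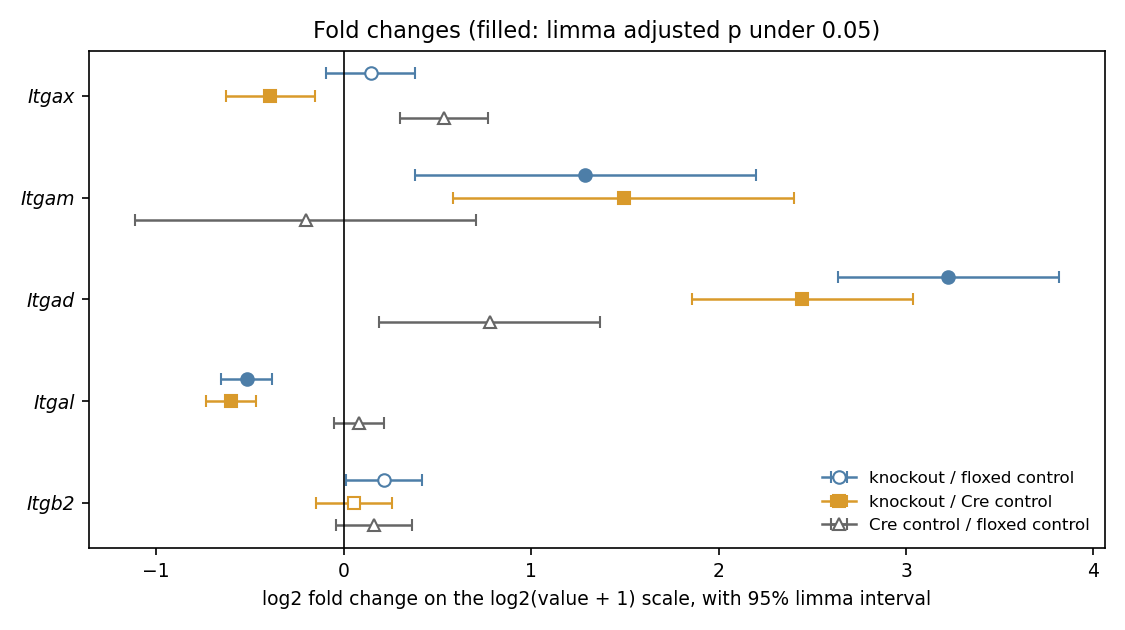
Log2 fold changes (horizontal axis) of the 5 genes with 95% limma intervals, for knockouts against floxed controls (circles), knockouts against Cre controls (squares) and Cre controls against floxed controls (triangles); filled symbols have an adjusted p under 0.05. Itgad and Itgam lie to the right and Itgal to the left in both knockout contrasts, while Itgax lies at 0.14 against the floxed and at -0.39 against the Cre controls.

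Counted by contrast, 3 of 5 members were called between knockouts and floxed controls (2 higher, 1 lower), where 34.3% of all genes were called (17.5% higher, 16.8% lower). Without the scaling factor the split of all genes in that contrast went from 2099 higher and 2013 lower to 1635 higher and 2540 lower, while the calls of the 5 members stayed as they were. Between knockouts and Cre controls it was 4 of 5 (2 higher, 2 lower), where 34.0% of all genes were called (16.3% higher, 17.7% lower). With so large a share of the transcriptome called, a count of this size over 5 genes says little about the family as such. Over all genes the median log2 fold change lay close to 0 in each contrast, at -0.0022 for knockouts against both controls. The scaling factors are set to centre most genes near 0, so this median is not an independent result. Without them it was -0.0484.

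Per kb of exon, the levels of the genes can be ordered. In the floxed controls Itgb2 stood at 748 normalized reads per kb (rank 37 of 11935 genes with a length), Itgax at 357 (rank 99) and Itgal at 108 (rank 422). Itgam, at 8.13 ± 5.67 (SD, n = 3), and Itgad, at 4.50 ± 0.849, came far below, and they did not differ beyond their spread. The Cre controls gave the same order for the upper 3, at 837, 522 and 114, with Itgad at 8.37 ± 3.94 and Itgam at 6.44 ± 2.75, again within their spread. In the knockouts the order was Itgb2 at 869, Itgax at 395, Itgal at 75.2, Itgad at 43.5 ± 2.77 and Itgam at 17.7 ± 2.98, with each pair of neighbours apart by more than its spread. Itgad moved from rank 6825 in the floxed controls to rank 1121 in the knockouts.

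Expressed as shares of the summed level of the 4 alpha chains per kb, CD11d became a visible fraction in the knockouts. Itgad made up 8.19% ± 0.265 (SD, n = 3) there, from 8.01% to 8.49% by library, and 1.10% ± 0.382 (SD, n = 6) in the controls, from 0.841% to 1.84%. The difference of 7.09 percentage points had p = 0.0238 in a two-sided exact permutation test of 3 against 6 libraries, the smallest that these 84 splits can give, and 0.0476 adjusted over the 4 chains. Itgal made up 14.1% ± 0.236 in the knockouts, from 13.98% to 14.4%, and 20.1% ± 2.89 in the controls, from 16.7% to 22.9%; the difference was -5.97 points (exact permutation p = 0.0238, adjusted 0.0476). The controls themselves did not overlap in this share. It was 22.5% ± 0.501 in the floxed controls, from 21.97% to 22.9%, and 17.7% ± 1.70 in the Cre controls, from 16.69% to 19.64% (SD, n = 3 each).

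Itgam made up 3.34% ± 0.684 (SD, n = 3) of the alpha chains in the knockouts and 1.34% ± 0.882 (SD, n = 6) in the controls, with floxed control 1, at 3.08%, inside the knockout range of 2.90% to 4.13%. The difference of 1.998 points had p = 0.0714 in the exact permutation test and 0.0952 after adjustment. Itgax was the main alpha chain in every library and made up 74.8% ± 1.42 in the floxed controls, 80.1% ± 1.39 in the Cre controls and 74.3% ± 0.399 in the knockouts (SD, n = 3 each). Its difference between knockouts and both controls, -3.11 points, did not pass (exact permutation p = 0.143). Without floxed control 1 the Itgax and Itgam differences, -3.97 and 2.35 points, both passed (exact permutation, adjusted p = 0.0357). Itgb2 exceeded the 4 alpha chains together 1.57-fold ± 0.1003 in the floxed controls, 1.3-fold ± 0.184 in the Cre controls and 1.64-fold ± 0.010 in the knockouts; the knockouts and all 6 controls differed by 0.202 (exact permutation p = 0.0952), or by 0.248 without floxed control 2 (exact permutation p = 0.0357). These are shares of transcripts, not of protein at the surface.

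**Figure D3:**
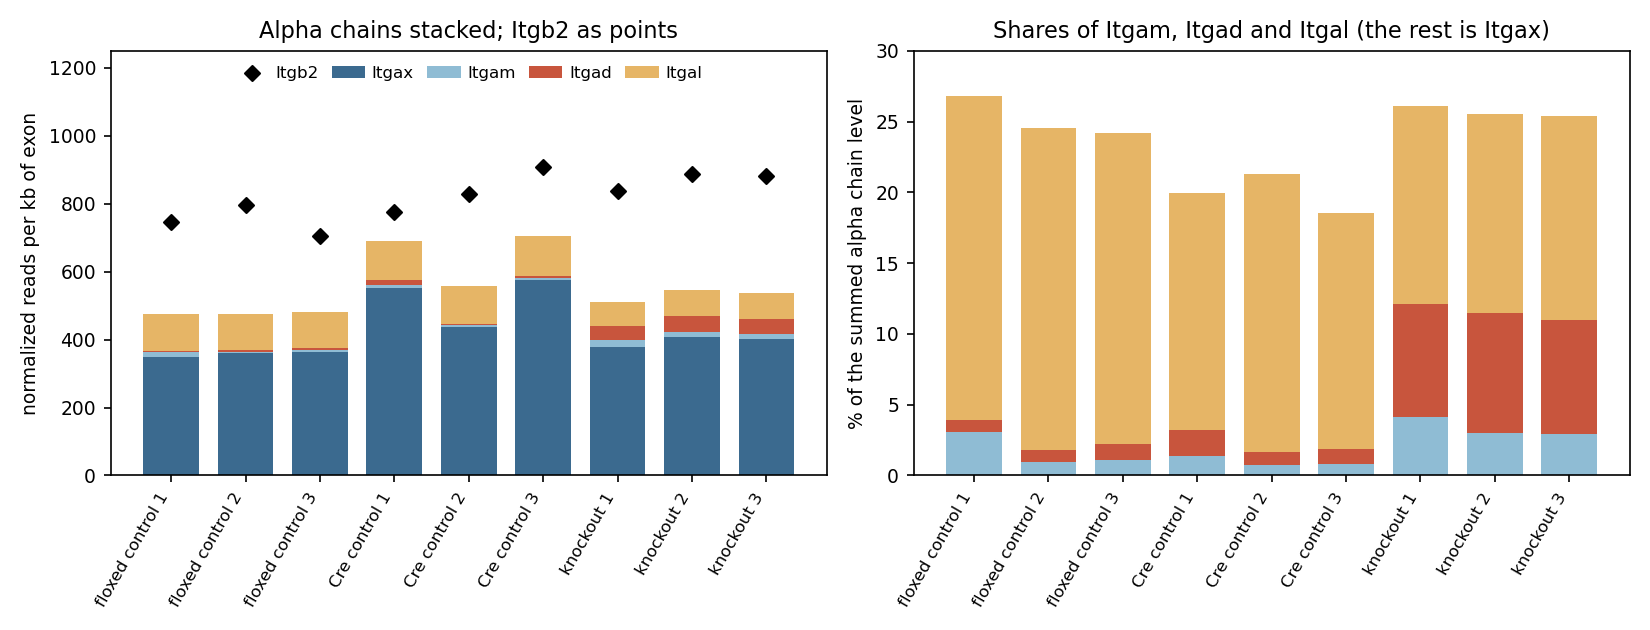
Left, normalized reads per kb of exon in each of the 9 libraries, with the 4 alpha chains stacked as bars and Itgb2 as points; right, the percent of the summed alpha chain level taken by Itgam, Itgad and Itgal in the same libraries. Itgad takes 8.01% to 8.49% in the knockouts and at most 1.84% in the controls, and Itgax is the largest segment in every stack.

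The genes around the cluster were examined because the members lie beside or include the Itgax gene that names the Cre allele. In a window of 200 kb on each side of the Itgam to Itgad cluster, 16 of 23 annotated protein-coding genes were measured, 13 of them not members. Of these 13, 3 rose, 1 fell and 9 were not called in the knockouts against both controls, where 39.8% of all genes were called. The median change of the 13 was 0.04 on the log2 scale. The measured genes next to the cluster, Pycard upstream and 9130023H24Rik downstream, were not called (limma adjusted p = 0.890 and 0.197; both were picked for their place after values were seen).

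The 3 that rose lie together 217.0 to 236.5 kb upstream of the Itgax start. Vkorc1, the vitamin K epoxide reductase, rose from 27.0 ± 1.97 (SD, n = 6) to 34.9 ± 1.98 (SD, n = 3) normalized reads (log2 change 0.36, adjusted p = 0.00421 by limma). Kat8, a histone acetyltransferase, rose from 11.7 ± 0.669 to 14.1 ± 0.289 (0.26; 0.0127). Bckdk, the kinase of branched-chain keto acid dehydrogenase, rose from 47.2 ± 3.802 to 56.3 ± 2.89 (0.25; 0.0222), a call lost without the scaling factor (adjusted p = 0.0727). Leaving out knockout 1 lowered the number that rose from 3 to 1. Rgs10, a regulator of G protein signalling whose annotated left end lies 244.1 kb downstream, fell from 18.9 ± 2.601 to 5.27 ± 0.825 (-1.67; 5.50e-06). Between Cre and floxed controls 0 of the 13 neighbours were called by limma, where 0.167% of all genes were called. None of the 13 had an unadjusted limma p under 0.05, and edgeR and DESeq2 called 0. The median log2 difference of the 13 was -0.01, against 0.54 for Itgax.

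**Figure D4:**
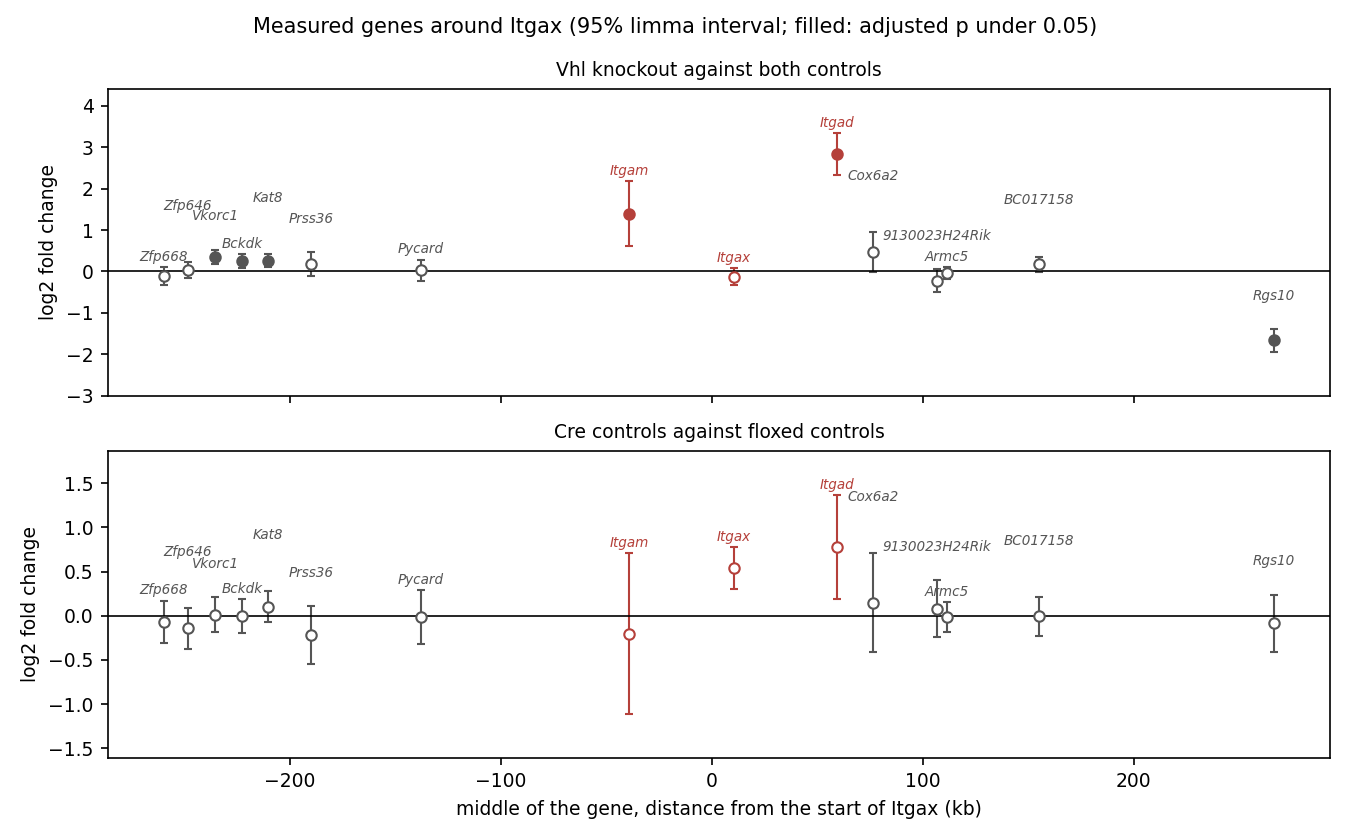
Log2 fold change with 95% limma interval (vertical axis) of measured genes around Itgax against the distance of the middle of each gene from the start of Itgax in kb, for knockouts against both controls (top) and Cre against floxed controls (bottom); members are red and filled points have an adjusted p under 0.05. Itgam and Itgad stand above the genes around them in the top panel, with Itgax between them at -0.12, and no point is filled in the bottom panel.

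The other integrin subunits, which pair among themselves and not with CD18, were taken from a list of 21 genes of which 11 were measured. In the knockouts against both controls 2 rose, 4 fell and 5 were not called, where 39.8% of all genes were called. The median log2 fold change of these subunits was -0.34. Itga4, the alpha chain of VLA-4 that binds VCAM-1, fell from 197 ± 17.9 (SD, n = 6) to 108 ± 9.46 (SD, n = 3; change on the log2 scale -0.86, adjusted p = 9.11e-06 by limma). Itgae (CD103), known from dendritic cells and mucosal T cells and also on the dendritic cell list, fell from 13.6 ± 4.34 to 4.22 ± 0.717 (-1.43; 5.12e-04). Itgb5, a beta chain of vitronectin receptors, fell from 274 ± 17.4 to 200.2 ± 8.24 (-0.45; 1.39e-04). Itgb1, the common partner of many alpha chains, rose from 589 ± 36.0 to 841 ± 44.2 (0.52; 1.33e-04). The fibronectin and vitronectin receptor chains Itga5 (158 and 152) and Itgav (65.0 and 73.1) were not called.

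Ligands and surface partners of the beta-2 integrins changed in both directions: of 21 listed genes 10 were measured, 3 rose, 3 fell and 4 were not called, and their median change was 0.05 on the log2 scale. Over all genes, 19.7% were called higher and 20.2% lower in the knockouts against both controls. Icam1, the ligand of CD11a and CD11b, fell from 151 ± 21.5 (SD, n = 6) to 58.4 ± 3.14 (SD, n = 3; change on the log2 scale -1.34, adjusted p = 1.10e-05 by limma). C3, the complement protein whose fragment iC3b is bound by CD11b and CD11c, fell from 615 ± 177 to 117 ± 21.1 (-2.35; 2.92e-05). Plaur, the urokinase receptor that associates with CD11b, rose from 258 ± 19.0 to 344 ± 15.8 (0.42; 7.91e-04), and Cd47, a partner of integrins and ligand of SIRPα, rose from 583 ± 40.2 to 703 ± 40.2 (0.27; 0.00728). Sirpa itself, at 2062 and 2066, and Icam5, at 2.01 and 1.85, were not called.

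Of 23 listed genes of inside-out activation, the step by which talin and kindlin open the receptor, 22 were measured. In the knockouts against both controls 3 rose, 2 fell and 17 were not called, where 19.7% of all genes were called higher and 20.2% lower. Skap2, an adaptor on the way to integrin activation in myeloid cells, fell from 146 ± 10.8 (SD, n = 6) to 113 ± 3.22 (SD, n = 3; change on the log2 scale -0.36, adjusted p = 0.00169 by limma). Cyth1 (cytohesin-1), which binds the CD18 tail, fell from 121 ± 5.57 to 104 ± 5.48 (-0.23; 0.00679). Rapgef2, an exchange factor for Rap1, rose from 22.6 ± 1.37 to 28.5 ± 4.16 (0.31; 0.0204), and Tln1, talin itself, from 716 ± 66.6 to 883 ± 82.9 (0.30; 0.0218). Without knockout 3 the number that rose went from 3 to 0, and the talin call was also lost without knockout 2 (adjusted p = 0.101) and without the scaling factor (0.0563). Flna, at 2940.0 and 3252, and Rap1b, at 418 and 417, were not called.

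Among genes of outside-in signalling and the adhesion complex, 4 of 26 measured members (28 listed) rose, 6 fell and 16 were not called, and their median change was -0.14 on the log2 scale. The share called among all genes in the knockouts against both controls was 39.8%. Rac2, the Rac GTPase of blood cells, fell from 191 ± 15.8 (SD, n = 6) to 57.0 ± 6.09 (SD, n = 3; change on the log2 scale -1.73, adjusted p = 1.67e-07 by limma). Vav1, an exchange factor for Rac, fell from 196 ± 8.61 to 125 ± 6.92 (-0.64; 1.31e-05). Zyx (zyxin), a protein of focal adhesions, rose from 209.5 ± 15.8 to 295 ± 4.30 (0.50; 2.09e-04). The adaptor Tyrobp (DAP12), at 672 and 585, and the kinase Syk, at 624 and 562, were not called (limma adjusted p = 0.117 and 0.0582). The number that fell depended on the setting: it was 13 without the scaling factor, 11 with DESeq2 and 10 without floxed control 3.

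**Figure D5:**
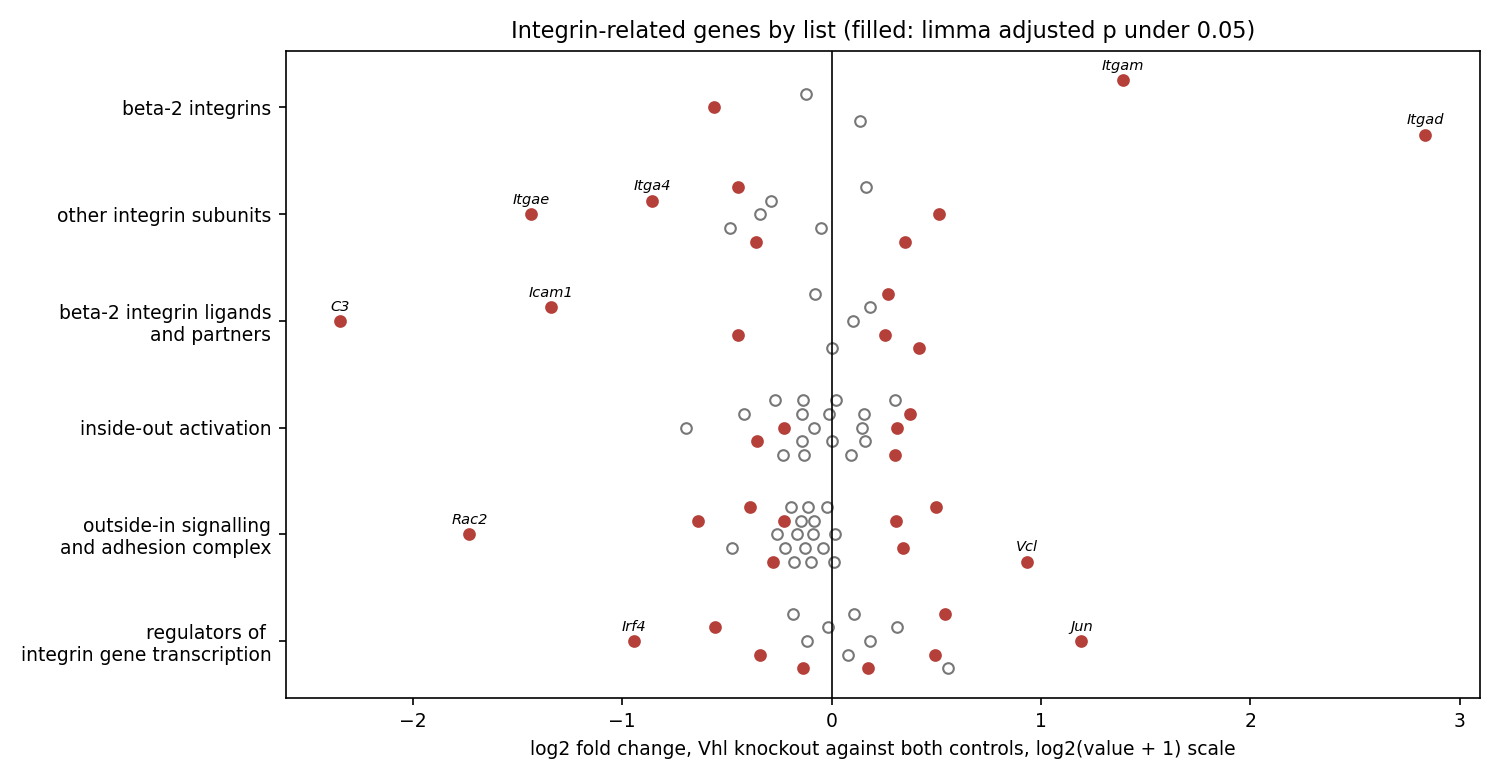
Log2 fold change of knockouts against both controls (horizontal axis) for measured genes of 6 lists, each point 1 gene; filled points have a limma adjusted p under 0.05, and filled points beyond 0.8 in either direction carry their symbol. Itgad, at 2.84, lies farthest to the right and C3, at -2.35, farthest to the left, while most genes of inside-out activation are open points near 0. Of all genes, 39.8% were called in this contrast.

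Transcription factors known to act on integrin genes were all measured (16 of 16): 4 rose, 4 fell and 8 were not called, and their median change was 0.09 on the log2 scale. Among all genes the share called in the knockouts against both controls was 39.8%. Spi1, which encodes PU.1, the myeloid factor known to act at the CD11b and CD18 promoters, stood at 422 ± 33.6 (SD, n = 6) in the controls and 388 ± 12.7 (SD, n = 3) in the knockouts and was not called (limma adjusted p = 0.237), nor was the myeloid factor Cebpa, at 400.4 and 396 (0.891). Runx1 rose from 231 ± 19.5 to 338 ± 32.9 (log2 change 0.54, adjusted p = 5.74e-04 by limma) and Pparg, needed for alveolar macrophage development, from 159 ± 12.0 to 224 ± 21.01 (0.49; 5.10e-04). Irf8, a factor of monocytes and dendritic cells, fell from 129.5 ± 5.47 to 102 ± 2.20 (-0.34; 3.83e-04). Jun rose from 61.9 ± 27.3 to 140.2 ± 53.4 (1.19; 0.0122), a call lost without knockout 3 (adjusted p = 0.0689). Without that library 2 rose and 2 fell. The number that fell was 1 without knockout 1, and 2 when the libraries numbered 1 were left out.

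Markers of the labelled cell type were present throughout. The summed level of 16 alveolar macrophage markers was 27100 to 32680 normalized reads in the controls and 39380 to 51370 in the knockouts; 8 of the 16 rose, 4 fell and 4 were not called. Most of that sum is Chil3, a chitinase-like protein, which rose from 17870 ± 1538 (SD, n = 6) to 30310 ± 6785 (SD, n = 3). The other 15 markers summed to 10440 to 13530 in the controls and 13320 to 15120 in the knockouts. Fabp4, a fatty acid-binding protein, rose from 89.5 ± 20.3 to 199 ± 20.3, whereas the keratin gene Krt79 fell from 399.8 ± 39.0 to 187 ± 21.5, and the mannose receptor gene Mrc1, at 1996 and 2106, was not called. Of 12 monocyte markers 4 rose and 2 fell, among them F13a1, coagulation factor XIII A, from 0.597 ± 0.303 (SD, n = 6) to 53.2 ± 10.02 (SD, n = 3) normalized reads. Of 8 interstitial macrophage markers 2 rose and 4 fell, of 9 measured lung epithelial markers (11 listed) 1 rose and 3 fell, of 5 T and NK cell markers (12 listed) 1 fell, of 2 B cell markers (8 listed) 1 rose, and the 1 measured eosinophil, basophil and mast cell marker (8 listed), Siglecf, which alveolar macrophages also carry, fell. Against both controls 39.8% of all genes were called, 19.7% higher and 20.2% lower. Several of these marker counts rest on 1 library. Without knockout 3 the interstitial macrophage markers that fell went from 4 to 0, C1qa, C1qb and C1qc among those lost, and without floxed control 1 or floxed control 3 to 1. Without knockout 2 the lung epithelial markers that fell went from 3 to 1 and the T and NK cell marker lost its call. The B cell marker, the immunoglobulin gene Igkc, lost its call without any 1 library other than floxed control 1, and its knockout mean of 14.9 ± 4.83 (SD, n = 3) was below that of the floxed controls, 26.6 ± 32.9 (SD, n = 3). The monocyte markers that fell went from 2 to 1 with edgeR, with DESeq2 and with the filter on the mean. The same happened without any 1 control other than floxed control 2, and without knockout 3. Floxed control 1, the control with the highest Itgam, had the highest summed monocyte, neutrophil and B cell markers of all libraries and the highest interstitial macrophage markers among the controls. Of Ly6g for neutrophils and Cd3e for T cells, no value was analysed here.

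The genes most like each member over the 9 libraries are given as a description, by Pearson's r of log2(value + 1) among 9829 genes with a mean of at least 5. The libraries share their genotypes, so genes that differ between genotypes correlate for that reason alone. For Itgax these were Ap1b1 (r = 0.9303), Tmbim1 (0.909) and Cd164 (0.886). Itgad was nearest to Slc22a5 (0.986), Krt19 (0.985) and Slc37a4 (0.985), and Itgam to Smox (0.976), Unc119b (0.970) and Tor4a (0.960). Itgal was nearest to Zcchc24 (0.993), Ms4a6c (0.993) and Agfg2 (0.992), and Itgb2 to Cyp4v3 (0.976), Ercc3 (0.959) and Lipo3 (0.952). Among the members themselves, r was 0.767 for Itgad with Itgam, -0.887 for Itgad with Itgal and 0.046 for the adjacent genes Itgax and Itgad.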

How the data were processed

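Libraries were polyA RNA sequenced as single 61-base reads on a HiSeq instrument, per the labels' protocols. The submitters' processing notes name CASAVA 1.8.2, cutadapt 1.3, RSEM 1.2.3 and GRCm38. Neither annotation nor strand setting is given in the sources used here. The deposited table holds a signal that is never negative, normalized reads, for 12003 genes that had passed the authors' filter. Within 0.01 read, 100% of values are whole reads times 1 factor per library, and these factors equal recomputed TMM factors on counts scaled to the library total (CPM). Of the identifiers, 11935 were matched to a symbol.

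Tests used limma 3.58.1 (R 4.3.3) with an intensity trend on log2(value + 1), 1 mean per genotype over all 9 libraries. Shares and the beta to alpha ratio were tested by exact permutation (numpy 2.4.6), the shares adjusted over the 4 alpha chains. edgeR 4.0.16 (quasi-likelihood) and DESeq2 1.42.0 were run on the recovered reads as alternatives, beside other pseudocounts, a filter on the mean, no scaling factor, no trend, a replicate block, only the groups compared and leave-one-out. The limma step was tested on simulated data.

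Named genes were all members, up to 4 called genes per list with the smallest adjusted p and a mean of at least 5, up to 2 uncalled with the highest mean, called locus neighbours, and 3 most alike genes per member; of the cell marker lists only a few such genes are named. Exceptions are stated, and a few genes of the lists are counted but not reported or plotted by name here. The members and lists were chosen with earlier results of these data known.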

Additional observations from a re-analysis of the deposited data

How the results depend on the processing

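Over the 5 members and 4 contrasts, 354 of 375 alternative values kept their direction and side of the threshold, 15 lost the call, 3 gained it and 3 turned sign. Itgam against the floxed controls (log2 fold change 1.29) lost its call without the intensity trend (1.29, adjusted p = 0.0515), with edgeR (1.12) and with DESeq2 (1.12), and ran from 0.99 to 1.81 with 1 library left out; against the Cre controls it ran from 1.24 to 1.81. DESeq2 gained Itgb2 against the floxed controls (0.21) and Itgax between the controls (0.54; 0.46 to 0.66 with 1 library left out). Leaving out all libraries numbered 1, chosen after seeing the data, ended the Itgax call against the Cre controls (-0.31; -0.51 to -0.32 with 1 left out) and turned Itgam between the controls to 0.0033, which was 0.32 without floxed control 1 and 0.053 without Cre control 2 (range -0.52 to 0.32). The cause was not tested.

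For shares, fewer splits raise the smallest p. With the replicate block the Itgad share (7.09 points) and Itgal share (-5.97) had adjusted p = 0.0988, and without libraries numbered 1 they were 7.29 and -6.045 (both 0.133). With 1 library left out the Itgad share ran from 6.93 to 7.23 and the Itgal share from -6.66 to -5.41. Both passed only without floxed control 1. Their adjusted p was 0.0714 with any 1 other control left out and 0.143 with any 1 knockout left out (exact permutation). Over those 9 fits the Itgax share ran from -3.97 to -2.31 and the Itgam share from 1.60 to 2.35. The beta to alpha ratio ran from 0.140 to 0.248. These 3 quantities passed in 1 fit each, without floxed control 1 for the shares and without floxed control 2 for the ratio. Without division by length that ratio differed by 0.144 (exact permutation p = 0.0238).

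Same-numbered libraries of different genotypes correlated at -0.0817 to 0.575 and other pairs at -0.473 to 0.424. Of the libraries, 4 of 9 correlated best with their own number, so the numbers were not taken as pairs. The libraries numbered 1 did go together: they correlated with each other at 0.202, 0.332 and 0.575, and with other numbers at -0.473 to -0.0396. For Cre against floxed controls (20 genes called, 8 higher, 12 lower) the replicate block gave 71 (59 lower), DESeq2 74 (25 higher, 49 lower), leaving out libraries numbered 1 147 (72 higher, 75 lower) and fitting these groups alone 11 (5 higher, 6 lower); pseudocount 5 gave 7 lower and the filter on the mean 6 lower. With 1 library left out the count was 13 to 31 (6 to 16 higher, 7 to 17 lower). Of the named genes that are not members, 1244 of 1307 alternative values kept direction and call. Without the scaling factor the median of all genes moved to -0.0484 for knockouts against both controls.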
